A study of Mus musculus with 6 samples.

Results

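The genes of Wnt signalling were compared between T1 and T2 tumor cells. Genes were taken by symbol: every Wnt, Frizzled (Fzd), secreted Frizzled-related protein (Sfrp), Dickkopf (Dkk) and R-spondin (Rspo) gene with a number after its name, and 21 further receptors, inhibitors, complex subunits and transcription factors. This gave 62 of the 24129 entries of the deposited expression table, among them 19 Wnt ligands and 10 Frizzled receptors. RNA had been sequenced from 3 libraries of T1 cells and 3 libraries of T2 cells. Both populations come from 4T1GFP, the mouse mammary carcinoma line 4T1 tagged with green fluorescent protein, which had been injected into the mammary fat pad of young adult BALB/c mice. The study also sequenced this parental line, which is not among the libraries compared here. It describes parental gene expression as similar to that of T1 cells. T1 cells (labelled 4T1A) were GFP low, adherent, epithelial in shape and fast growing, and are described as aggressive. T2 cells (labelled 4T1NA) were round, loosely attached, slower growing and less aggressive, and the study describes them as high in GFP. Both were sorted from a culture of tumor fibroblasts that GFP-positive tumor cells had outgrown, so each population stands for 1 sorted culture of 1 parental line. Both were grown in DMEM/F-12 medium with serum. The study's methods speak of biological replicates for its experiments in general, but neither they nor the labels say whether the libraries of a population came from separate cultures. The p-values measure the spread between these libraries, which may be technical in part.

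Wnt proteins are secreted glycoproteins that carry a lipid added by the acyltransferase Porcn and bind Frizzled receptors on the cell surface. With the co-receptors Lrp5 or Lrp6 they stop the destruction complex of Axin, Apc and Gsk3 from marking beta-catenin for degradation, and beta-catenin then acts with the TCF/LEF factors on target genes. Frizzled receptors are removed from the surface by the ubiquitin ligases Rnf43 and Znrf3, and R-spondins bound to Lgr4, Lgr5 or Lgr6 hold these ligases back. In the mammary gland the pathway is known for its part in branching and in the maintenance of basal stem cells, and Wnt1 was first found as a gene activated by a tumor virus in mouse mammary tumors.

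Each library held between 18133227 and 20839686 reads on genes. Normalized counts are the authors' reads per gene divided by 1 size factor per library, so that 1 read is worth 0.928 to 1.06 normalized counts. Genes whose normalized count averaged 10 or more across the libraries entered a limma fit of log2(normalized count + 1). This is the scale of every log2 fold change given here unless another pseudocount, tool or setting is named. It understates the change of low genes. Fold changes are T1 against T2, and the call was made where the adjusted p-value lay under 0.01. The stricter call of the study's methods also asks that the log2 fold change exceed 2 up or down, and is written as both filters. Krt8 and Krt18, keratins of luminal epithelium, had means of 22067 and 23275 normalized counts in T1 cells and 19195 and 21658 in T2 cells, while Krt5 was listed at 0 in every library. The other epithelial markers differed widely. Mean normalized counts in T1 and T2 cells were 3141 and 34.7 for Epcam, 14748 and 465.4 for Cdh1, 33024 and 273.9 for Krt7, 3177 and 2.91 for Krt19, and 3795 and 3.04 for Krt14. Of the 7 epithelial markers compared, 5 were higher in T1 cells past both filters, and the list's median log2 fold change was 6.46. The sum of the 8 ran from 95664 to 113721 in T1 and from 37618 to 43995 in T2 libraries. These 5 markers move with the groups in the same libraries as the results given here, and their part in them was not tested. Of 8 fibroblast markers 4 were listed at 0 throughout (Col3a1, Lum, Pdgfrb and Thy1), and the sum of the list was at most 40.0 in a T1 and 1.86 in a T2 library. The 8 leukocyte markers summed to at most 7.44 in a T1 and 19.5 in a T2 library, with Tyrobp and Cd3e at 0. Of 6 endothelial markers, Kdr and Emcn were at 0 and Pecam1, Cdh5 and Tek reached at most 4.64, but Flt1 alone had 3456 to 3923 in T2 against 270.4 to 353.4 in T1 libraries. The part of other cell types in the results was not tested, and in bulk RNA fewer cells with a transcript and less of it per cell cannot be told apart. A listed 0 is read here with care, since Gapdh, which every cell uses, held 1 read in all 6 libraries together.

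Of the 62 genes, 31 reached the mean of 10 normalized counts and were compared. Another 13 held reads below it and 18 were listed at 0 in every library. Among the 31, 11 were higher in T1 cells and 6 were lower, which makes 17 (54.8%), where 49.5% of the 11514 genes tested were called, 25.1% higher and 24.4% lower. Past both filters 7 were higher and 3 lower, 10 in all (32.3%), against 8.37% of all genes tested (4.17% higher and 4.20% lower). Among them Wnt7a, Wnt11, Rnf43 and Sfrp1 had a mean under 10 in T2 cells, and Wnt5b in T1 cells. They entered only through the group where they were high, which favors a large fold change. The shares past both filters are therefore descriptions only. The values of T1 and T2 libraries did not overlap in 22 of the 31 (71.0%), against 68.1% of all genes tested. The median log2 fold change of the 31 genes was 0.30 and that of all genes tested -0.0055. The median size of the change, whatever its sign, was 0.69 against 0.45. The families are described in turn, from ligands to nuclear factors.

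**Figure D1:**
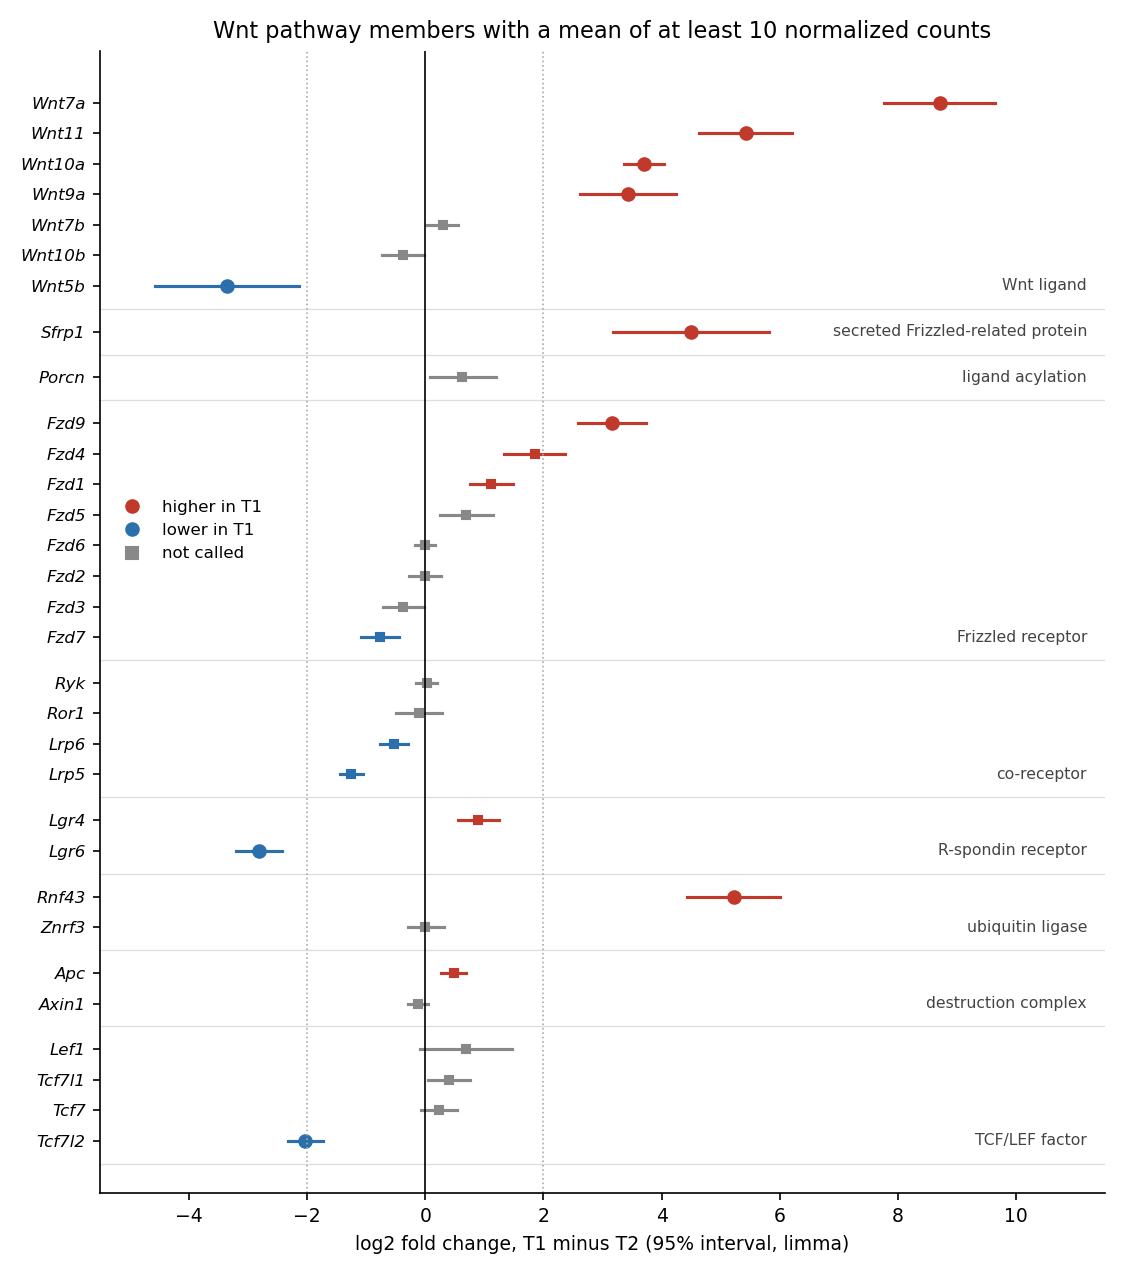
Log2 fold change (T1 minus T2, x axis) of the 31 Wnt pathway genes compared, by family, with 95% intervals from limma over 3 T1 and 3 T2 libraries; red genes were higher and blue genes lower in T1 cells, grey genes were not called, circles mark genes past both filters, squares the others, and dotted lines a log2 fold change of 2 either way. Wnt7a lies farthest to the right at 8.71, Wnt5b farthest to the left at -3.36, and Fzd6, Fzd2, Ryk and Znrf3 sit near 0.

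In the limma fit with a pseudocount of 1, the ligands included the largest differences in both directions among the 31 genes. Of 19 Wnt genes, 7 were compared, 4 were higher and 1 lower in T1 cells, all 5 past both filters, and 2 were not called. The share called was 71.4% beside 49.5% of all genes tested, and 71.4% beside 8.37% past both filters. These shares are descriptions only, since Wnt7a, Wnt11 and Wnt5b passed the mean filter only through the group where they were high. Wnt7a, a ligand of epithelia that is known from limb and uterus development, is found at 91363981 to 91411363 of mm10 chromosome 6. It had normalized counts of 1590.3, 1849.8 and 2167 in the T1 libraries and 1.96, 9.21 and 1.86 in the T2 libraries. The lowest T1 library was far above the highest T2 library, which itself rested on 9 reads. The means of 1869 ± 289 and 4.34 ± 4.22 (SD, n = 3 each) differed 430.3-fold. The log2 fold change was 8.71 (standard error 0.42, adjusted p = 7.74e-08, limma), 9.32 without T2 replicate 2, and 7.73 with a pseudocount of 5. Whether Wnt7a stands on the study's own list of top genes raised in T1 cells was not checked. That list was drawn from these libraries and is no separate evidence.

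Wnt11 (chromosome 7, 98835112 to 98855195), a ligand mostly linked to signalling without beta-catenin, had normalized counts of 92.1, 155.3 and 123.0 in T1 libraries. Its T2 libraries held 2, 1 and 3 reads, which left no overlap. The log2 fold change was 5.43 (standard error 0.35, adjusted p = 6.01e-07, limma), or 4.19 with a pseudocount of 5. Wnt10a (chromosome 1, 74791516 to 74804179), a ligand that signals through beta-catenin in skin appendages and mammary placodes, had 615.8, 774.7 and 620.7 in T1 and 48.0, 48.1 and 54.7 in T2 libraries. It was 13.3-fold higher in T1 cells, and its log2 fold change was 3.70 (standard error 0.15, adjusted p = 2.76e-08, limma). Wnt9a (chromosome 11, 59306928 to 59333552), known from joint formation, had 133.3, 136.7 and 324.0 in T1 libraries, of which the third stood apart, and 16.6, 11.3 and 21.3 in T2 libraries. Its log2 fold change was 3.43 (standard error 0.36, adjusted p = 1.89e-05, limma), and 3.01 without T1 replicate 3.

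Wnt5b (chromosome 6, 119432531 to 119544347), a ligand of beta-catenin-independent signalling, went the other way. It had 7, 9 and 1 reads in the T1 and 69, 47 and 53 in the T2 libraries. The T2 mean of 55.0 ± 10.9 normalized counts was 9.84 times the T1 mean of 5.58 ± 4.02 (SD, n = 3 each). Its log2 fold change was -3.36 (standard error 0.55, adjusted p = 3.71e-04, limma), and -2.64 without T1 replicate 3, which held the single read. With a pseudocount of 5 it was -2.57. In these settings Lgr6, described below, was the lower of these genes, at -2.87 and -2.79.

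Wnt7b and Wnt10b, the close relatives of Wnt7a and Wnt10a, were present in both populations. Wnt7b (chromosome 15, 85535437 to 85582473) had 4419, 3847 and 5412 normalized counts in T1 and 3991, 3418 and 3614 in T2 libraries. The groups overlapped, and the log2 fold change of 0.30 (95% interval 0.038 to 0.56, adjusted p = 0.0468, limma) was not called. Wnt10b had 525.9, 469.7 and 339.6 in T1 and 632.6, 542.6 and 537.3 in T2 libraries. Its libraries did not overlap, but the log2 fold change of -0.38 (95% interval -0.73 to -0.022, adjusted p = 0.0613, limma) missed the threshold. The T1 mean of Wnt7b was 1.24 times its T2 mean, and the T2 mean of Wnt10b 1.28 times its T1 mean.

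**Figure D2:**
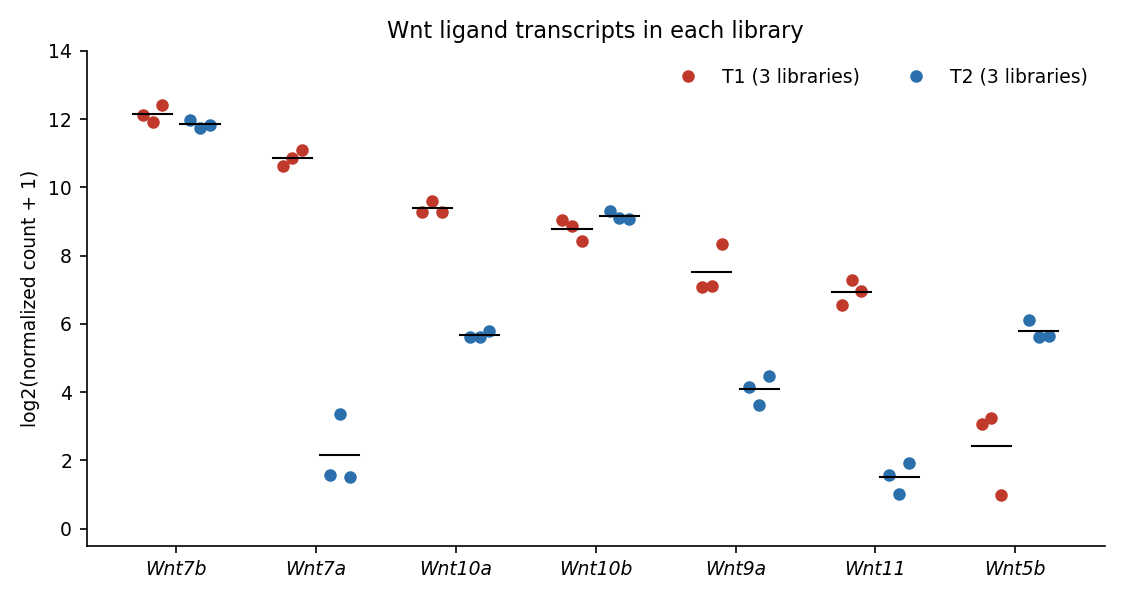
Log2(normalized count + 1) (y axis) of the 7 Wnt ligands compared (x axis) in each of 3 T1 (red) and 3 T2 (blue) libraries, with black bars at the group means. Wnt7a, Wnt10a, Wnt9a and Wnt11 separate with T1 on top, Wnt5b separates with T2 on top, and the Wnt7b libraries overlap.

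Dividing each gene's normalized count by the length of its annotated exons allowed levels to be compared between ligands. The 19 ligands together had 2016 ± 221 normalized counts per kb in T1 and 973 ± 77.4 in T2 cells (SD, n = 3 each). Wnt7b held the largest share of this sum in every library, with 41.3% to 48.7% in T1 and 76.7% to 77.7% in T2 libraries. Wnt7a came next in T1 libraries with 26.8% to 30.6%, but held at most 0.319% in a T2 library. Wnt10a took 11.1% to 16.5% in T1 and at most 2.34% in T2 libraries. Wnt10b took 16.6% to 17.6% in T2 and 4.40% to 8.25% in T1 libraries. Per length, Wnt7b was above 90.2% of the genes compared in T1 and 88.0% in T2 cells, and Wnt7a above 83.8% in T1 cells.

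**Figure D3:**
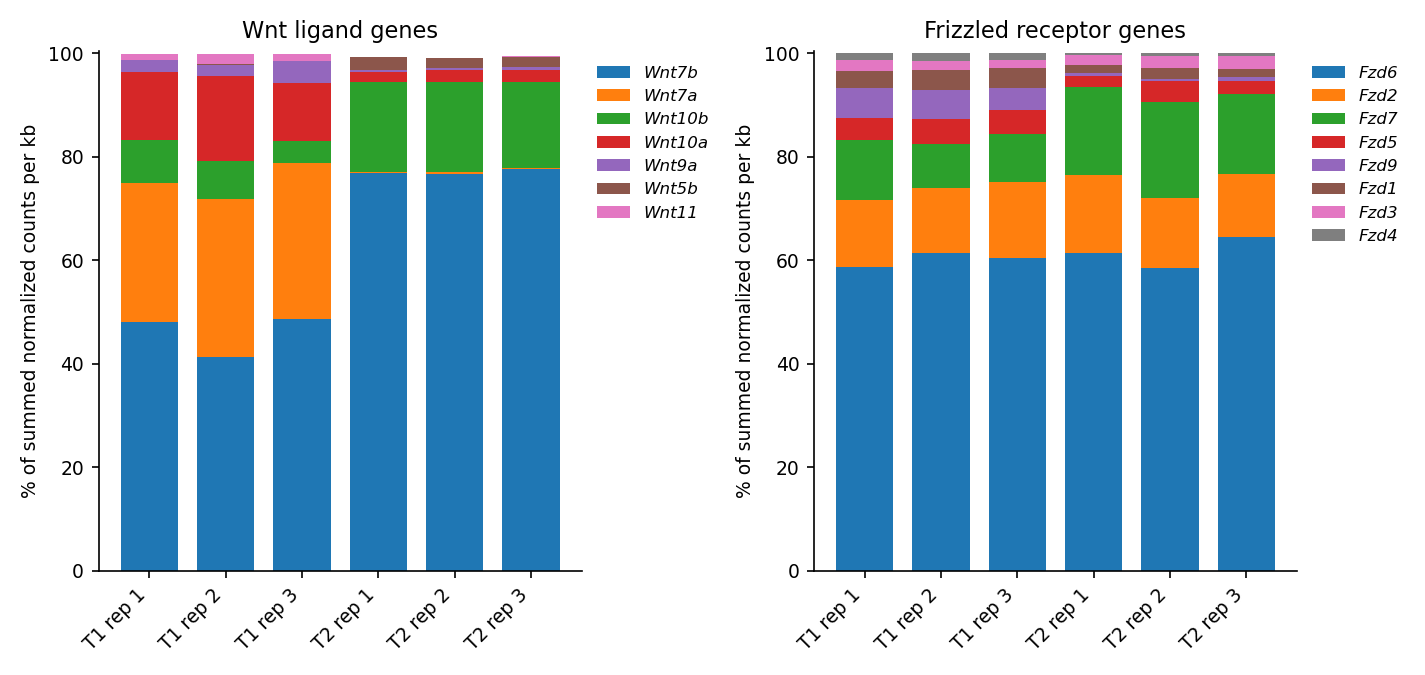
Share (%) of each gene in the summed normalized counts per kb of exon of its family (y axis) in each of the 6 libraries (x axis), for Wnt ligands (left) and Frizzled receptors (right); genes that stayed under 0.5% in every library are not drawn. Wnt7a (orange, left) fills 26.8% to 30.6% of the T1 bars and is nearly absent from the T2 bars, while Fzd6 (blue, right) fills 58.4% to 64.5% of every bar.

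The other 12 Wnt genes were low or listed at 0. Wnt2, Wnt3, Wnt3a, Wnt5a, Wnt8a, Wnt8b and Wnt9b were listed at 0 in every library. Wnt1, the oncogene of virus-induced mammary tumors, held 0, 1 and 1 reads in T1 and 11, 9 and 7 in T2 libraries, which did not overlap. Its mean lay under the filter. In the fit without a filter its log2 fold change was -2.63 (adjusted p = 4.73e-04, limma). Wnt2b reached 14 reads in 1 T2 library and at most 7 in the others, and Wnt4, Wnt6 and Wnt16 reached at most 4 reads. Several Wnt genes lie side by side on the genome. Wnt10a lies 6193 bases from Wnt6, which held at most 4 reads. Wnt9a lies 16175 bases from Wnt3a, listed at 0, and Wnt10b 11706 bases from Wnt1. Wnt3 and Wnt9b, 24328 bases apart, were both listed at 0.

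The bases before an annotated transcript start are shown for 4 genes that were past both filters, 3 higher and 1 lower in T1 cells. They are the 250 bases before a start in the RefSeq table of GRCm38.p6, the assembly behind mm10, which matched 41 of the 62 genes. The motif CTTTGAT, the core that TCF/LEF factors bind, was searched on both strands (ATCAAAG on the other) and stands in capitals. The windows of Rnf43 and Wnt5b shown lie before internal starts, inside the gene bounds given here, while that of Wnt11 ends just before the outer start and that of Wnt7a reaches a few bases past it into the gene.
Wnt7a upstream, chr6:91411354-91411603, minus strand: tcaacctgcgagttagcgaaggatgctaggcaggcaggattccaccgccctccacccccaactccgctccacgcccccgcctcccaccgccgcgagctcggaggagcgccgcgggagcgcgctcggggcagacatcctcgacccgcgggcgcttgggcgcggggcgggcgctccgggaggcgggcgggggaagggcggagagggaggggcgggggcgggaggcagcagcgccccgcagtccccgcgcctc
Wnt11 upstream, chr7:98834862-98835111, plus strand: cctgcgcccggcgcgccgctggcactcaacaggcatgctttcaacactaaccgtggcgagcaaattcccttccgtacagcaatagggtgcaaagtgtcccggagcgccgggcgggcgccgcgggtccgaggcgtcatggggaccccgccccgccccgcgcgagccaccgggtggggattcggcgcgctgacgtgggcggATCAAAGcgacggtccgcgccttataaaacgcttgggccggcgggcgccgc
Rnf43 before an internal start, chr11:87662837-87663086, plus strand: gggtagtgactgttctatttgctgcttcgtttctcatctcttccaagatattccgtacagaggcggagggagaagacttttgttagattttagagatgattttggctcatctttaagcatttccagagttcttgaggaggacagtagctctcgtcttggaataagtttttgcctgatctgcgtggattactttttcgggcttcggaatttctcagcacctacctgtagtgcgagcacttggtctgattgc
Wnt5b before an internal start, chr6:119449387-119449636, minus strand: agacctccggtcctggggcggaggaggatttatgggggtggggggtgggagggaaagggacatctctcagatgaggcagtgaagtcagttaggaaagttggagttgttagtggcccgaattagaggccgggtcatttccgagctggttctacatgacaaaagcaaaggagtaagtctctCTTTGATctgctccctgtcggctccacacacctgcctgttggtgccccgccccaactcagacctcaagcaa
The motif was found in 2 of the 50 such windows of these genes (4%) and in 3.21% of all 32851 windows, to which the limit by chromosome was not applied. The 2 were the windows of Wnt11 and Wnt5b shown here, 1 of a gene higher and 1 of a gene lower in T1 cells. The windows shown held 34 (Wnt7a), 37 (Wnt11), 8 (Rnf43) and 7 (Wnt5b) CpG dinucleotides, beside medians of 15.5 over the windows of genes compared and 6 over all windows. Windows not shown held 16 (Wnt11), 2 (Rnf43), and 4 and 35 (Wnt5b), the 35 before its outer start. The remaining starts of Wnt11, Rnf43 and Wnt5b, among them the outer start of Wnt5b, had no match, and a match is only a description of the letters.

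Among the 62 genes, those for secreted inhibitors (Dickkopf, Wif1 and secreted Frizzled-related) were low or listed at 0. Of the 4 Dickkopf genes, Dkk1, a blocker of Lrp5 and Lrp6, and Dkk3 were listed at 0. Dkk2 and Dkk4 held 1 read each in all libraries together. Wif1, which binds Wnt proteins, held at most 2 reads in a library. Of the 4 secreted Frizzled-related genes, which also bind Wnt proteins, Sfrp2 and Sfrp4 were listed at 0 and Sfrp5 held 1 read. Sfrp1 (chromosome 8, 23411502 to 23449632) held 35, 32 and 9 reads in T1 libraries and was listed at 0 in T2 libraries. Its T1 mean was 8.60 times the level of 3 reads per T2 library, though the lowest T1 library held only 9 reads. Its fitted log2 fold change of 4.49 (adjusted p = 8.49e-05, limma) depends on the pseudocount and was 5.10 without T1 replicate 3. The 4 R-spondin genes, which strengthen Wnt signalling, were also at or near 0, with at most 3 reads of Rspo3 in 1 T2 library. Porcn, the acyltransferase every Wnt protein needs, had 71.4 ± 16.0 normalized counts in T1 and 45.7 ± 9.86 in T2 cells (SD, n = 3 each), and its log2 fold change of 0.63 (adjusted p = 0.0475, limma) was not called.

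Of 10 Frizzled genes 8 were compared, 3 were higher and 1 lower in T1 cells, and Fzd9 alone was past both filters. The share called was 50% beside 49.5% of all genes tested, and 12.5% beside 8.37% past both filters, so the share called is near that background. Per kb of exon the family summed to 1224 ± 51.0 in T1 and 1205 ± 57.4 in T2 cells (SD, n = 3 each). Fzd6 held 58.6% to 61.5% of that sum in T1 and 58.4% to 64.5% in T2 libraries. Its normalized counts were 3551 ± 102 and 3566 ± 217 (SD, n = 3 each), and the 95% interval of its log2 fold change ran from -0.17 to 0.16 (limma). Fzd2, with 597 ± 35.9 and 604 ± 90.9, had an interval of -0.28 to 0.27.

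Fzd9 (chromosome 5, 135248938 to 135251230) had 170.4, 158.1 and 112.2 normalized counts in T1 and 15.7, 12.3 and 18.6 in T2 libraries. The groups were well apart, and the log2 fold change was 3.16 (standard error 0.25, adjusted p = 2.69e-06, limma). Fzd4, which is also the receptor of the non-Wnt ligand Norrin, had 116.4, 114.4 and 105.4 in T1 against 22.5, 33.8 and 36.2 in T2 libraries. Its log2 fold change was 1.86 (standard error 0.23, adjusted p = 5.94e-05, limma). Fzd1 had 176.7, 201.8 and 188.4 in T1 and 83.2, 97.3 and 78.9 in T2 libraries, again without overlap. Its log2 fold change was 1.12 (adjusted p = 1.60e-04, limma). Fzd7, a Frizzled known from stem cells and basal breast cancer, was the member that was lower in T1 cells, with 677.2, 472.4 and 501.7 against 981.1, 992.1 and 810.1 (log2 fold change -0.76, adjusted p = 0.00105, limma).

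Fzd5 had 371.4, 397.1 and 380.6 normalized counts in T1 libraries. Its T2 libraries had 190.0, 339.9 and 205.1, of which the second was the nearest to T1. With a log2 fold change of 0.69 it missed the call (adjusted p = 0.0119, limma), but was called without T2 replicate 2, at 0.95 (adjusted p = 3.23e-04, limma). Over all alternatives its adjusted p ran from 3.23e-04 to 0.0557. Fzd3 had 278.5 ± 51.4 in T1 and 356.6 ± 34.1 in T2 cells (SD, n = 3 each), with overlapping libraries, and its log2 fold change of -0.37 was not called (adjusted p = 0.0605, limma). Fzd8 was listed at 0 and Fzd10 held 1 read.

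Both LDL-receptor-related co-receptors were lower in T1 cells. Lrp5 (chromosome 19, 3584828 to 3686564) had 2944, 2977 and 3517 normalized counts in T1 and 7726, 7722 and 6958 in T2 libraries. All T2 libraries were above all T1 libraries, and the T2 mean was 2.37 times the T1 mean. On the log2 scale the difference was -1.25 (standard error 0.088, adjusted p = 1.09e-06, limma). Lrp6 had 1219, 1239 and 1414 against 1659, 2147 and 1810.3, and its log2 fold change was -0.53 (standard error 0.11, adjusted p = 0.00165, limma). This call was lost without the variance trend (adjusted p = 0.0101, limma). Ryk, a receptor with an inactive kinase domain, had 3192 ± 158 and 3141 ± 198 (SD, n = 3 each), an interval of -0.15 to 0.20 in log2 fold change. Ror1, a receptor tyrosine kinase that binds Wnt5a, had 156.3 ± 26.6 and 167.4 ± 20.7 (SD, n = 3 each), and its interval was -0.49 to 0.28. Ror2 was listed at 0.

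The R-spondin receptors changed in opposite directions. Lgr6 (chromosome 1, 134983301 to 135105276), a marker of stem cells in skin, had 228.5, 235.3 and 261.6 normalized counts in T1 and 1378, 1536 and 2341 in T2 libraries. All T2 libraries were above all T1 libraries, and the third was the highest. The log2 fold change was -2.81 (standard error 0.18, adjusted p = 4.46e-07, limma). Lgr4 (chromosome 2, 109917647 to 110014257), the most widely expressed of the 3 receptors, had 382.0, 398.0 and 342.6 in T1 and 190.0, 246.8 and 172.6 in T2 libraries (log2 fold change 0.89, adjusted p = 5.88e-04, limma). Lgr5, the marker of intestinal stem cells, was listed at 0. Per kb of exon, Lgr4 made up 60.4% to 66.3% of the sum of both receptors in T1 libraries and 7.91% to 15.8% in T2 libraries, and Lgr6 the rest.

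Rnf43 (chromosome 11, 87662722 to 87735539) and Znrf3 encode ligases with the same role, but only Rnf43 was called. Rnf43 had 161.9, 192.5 and 146.4 normalized counts in T1 libraries. In T2 libraries 3, 2 and 7 reads were left. The means of 166.9 ± 23.5 and 3.83 ± 2.35 (SD, n = 3 each) differed 43.6-fold, and the log2 fold change was 5.22 (standard error 0.35, adjusted p = 7.99e-07, limma), or 4.31 with a pseudocount of 5. Znrf3 had 659.2, 639.8 and 528.0 in T1 and 521.9, 714.7 and 592.9 in T2 libraries, which overlapped. Its log2 fold change had an interval of -0.30 to 0.31 (limma).

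**Figure D4:**
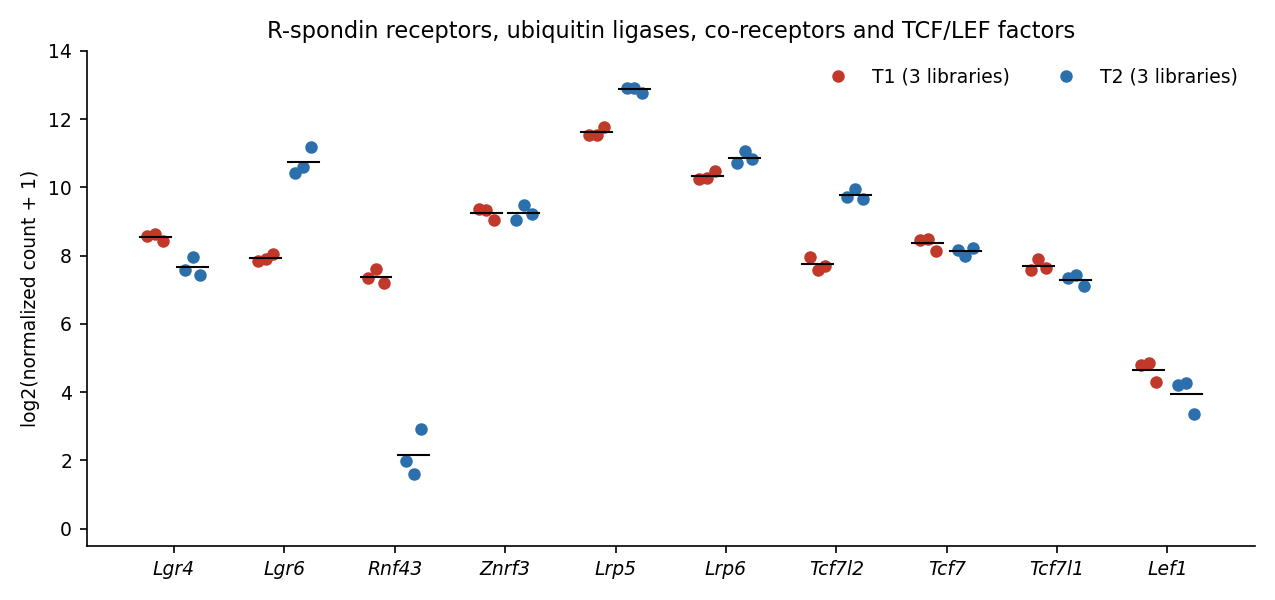
Log2(normalized count + 1) (y axis) of R-spondin receptors, ubiquitin ligases, co-receptors and TCF/LEF factors (x axis) in each of 3 T1 (red) and 3 T2 (blue) libraries, with black bars at the group means. Lgr4 and Lgr6 are separated in opposite directions, Rnf43 falls to 2 to 7 reads in T2 libraries, and the Znrf3 libraries overlap.

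Inside the cell, Apc, a scaffold of the destruction complex, had 2118, 1929 and 2244 normalized counts in T1 and 1493, 1651 and 1374 in T2 libraries. The groups did not overlap, and the log2 fold change was 0.48 (standard error 0.095, adjusted p = 0.00133, limma). Axin1, another scaffold, had 2768 ± 109 and 3021 ± 208 (SD, n = 3 each), an interval of -0.30 to 0.050 in log2 fold change. Axin2, an inducible relative of Axin1 and a widely used target gene of the pathway, was listed at 0 in all 6 libraries. Nkd1, another feedback inhibitor, was also listed at 0, and Nkd2 held 2 reads in 1 T2 library. Notum, a secreted deacylase of Wnt proteins that was picked after its values were seen, held 12, 8 and 9 reads in T1 and 3, 0 and 1 in T2 libraries, under the filter.

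Among the TCF/LEF factors, Tcf7l2 (chromosome 19, 55741820 to 55933654) had 245.5, 190.7 and 205.9 normalized counts in T1 and 831.3, 982.9 and 808.2 in T2 libraries. Every T2 library was above every T1 library by a wide margin, and the difference on the log2 scale was -2.03 (standard error 0.13, adjusted p = 6.39e-07, limma). As this lies at the edge of the filter of 2, it moved to -1.94 or -2.13 when single libraries were left out. Tcf7 had 328.9 ± 42.3 in T1 and 279.2 ± 23.7 in T2 cells (adjusted p = 0.174, limma), and Tcf7l1 had 207.9 ± 26.4 and 156.3 ± 18.2 (adjusted p = 0.0456, limma; SD, n = 3 each). Lef1 was low, with 24.3 ± 5.04 and 15.1 ± 5.07 (SD, n = 3 each). None of these 3 was called. Per kb of exon Tcf7 held 58.5% to 62.9% of the summed factors in T1 libraries, and Tcf7l2 9.85% to 13.1%. In T2 libraries they were close to each other, with 37.9% to 47.1% for Tcf7 and 38.1% to 44.1% for Tcf7l2.

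Other genes of the pathway were read from 6 lists written from general knowledge. Earlier results of these data were known when the lists were written, so their counts and shares are descriptions only. Of 38 target genes outside the 62, 22 were compared, 8 were higher in T1 cells and 10 were lower. Their median log2 fold change was -0.22, and the list did not move in 1 direction. The share called was 81.8%, beside 49.5% of all genes tested. Past both filters 3 were higher and 3 lower, where 8.37% of all genes tested passed. Wisp1 had 2240, 2392 and 2986 normalized counts in T1 and 14.7, 15.4 and 17.6 in T2 libraries (log2 fold change 7.23, adjusted p = 5.10e-10, limma). Ctgf had a log2 fold change of 6.25 and Ephb3 one of 6.11, the latter 5.43 without T2 replicate 2. Wisp1 and Ctgf encode matricellular proteins. Myc was higher in T1 cells (7445 ± 1336 against 3063 ± 329, log2 fold change 1.27), while Ccnd1, the cyclin of early cell cycle entry, was lower (21577 ± 76.0 against 53906 ± 2093, log2 fold change -1.32, SD, n = 3 each). Tnfrsf19, Id2 and Fosl1 had log2 fold changes of -2.99, -2.87 and -2.48, and that of Id2 was -3.51 without T1 replicate 2. Sp5, Sp8, Ascl2 and Mmp7 were among the genes of the list that were listed at 0.

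Of 20 genes of the destruction complex and Dishevelled, 19 were compared, 4 were higher and 8 lower in T1 cells (median log2 fold change -0.13). The share called was 63.2%, with 41.2% of nuclear cofactors and 37.5% of secretion genes, beside 49.5% of all genes tested. Ctnnb1, which encodes beta-catenin, had 15518 ± 652 normalized counts in T1 and 20924 ± 1564 in T2 cells (SD, n = 3 each), and the log2 fold change was -0.43 (adjusted p = 7.74e-04, limma). Gsk3b, its kinase, had a log2 fold change of -0.25 and was not called (adjusted p = 0.0175, limma). Apc2, a neural relative of Apc, had 48.7, 43.7 and 50.8 in T1 and 504.3, 498.6 and 405.5 in T2 libraries (log2 fold change -3.27, adjusted p = 7.93e-08, limma). Of 18 nuclear cofactors 17 were compared, 2 were higher and 5 lower, with a median of -0.16. Tle4, a co-repressor that binds TCF factors, was the member past both filters, at a log2 fold change of 2.13 (adjusted p = 4.97e-06, limma). Of 10 secretion and deacylation genes 8 were compared, 1 was higher and 2 lower, with a median of -0.07. Wls, which carries Wnt proteins to the surface, was lower in T1 cells (1609 ± 220 against 2807 ± 372, SD, n = 3 each, log2 fold change -0.80, adjusted p = 1.96e-04, limma).

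Of 24 further extracellular and membrane modulators 14 were compared, 1 was higher and 8 lower in T1 cells (median -0.52). Gpc4, a heparan sulfate proteoglycan, had 72.0, 50.2 and 71.2 normalized counts in T1 and was listed at 0 in T2 libraries. Its T1 mean was 22.0 times the level of 3 reads per T2 library. Igfbp4 and Apcdd1, both described as Wnt inhibitors, had log2 fold changes of -2.87 and -2.79, and Sulf2, which trims heparan sulfate, of -2.32. Igfbp4 reached 58008 ± 1125 in T2 and 7961 ± 998 in T1 cells (SD, n = 3 each). Of 21 planar cell polarity genes 15 were compared, 6 were higher in T1 cells and 1 was lower (median 0.04). Celsr1 (577 ± 211 against 5.54 ± 0.624, SD, n = 3 each) and Prickle1 (126.4 ± 14.8 against 9.32 ± 3.45) had log2 fold changes of 6.40 and 3.67. Fjx1 was listed at 0 in T2 libraries, and its T1 mean was 12.95 times the level of 3 reads per T2 library. The shares of genes called were 81.8% of the targets, 63.2% of the destruction complex list, 41.2% of the nuclear cofactors, 37.5% of the secretion genes, 64.3% of the modulators and 46.7% of the polarity genes, beside 49.5% of all genes tested.

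**Figure D5:**
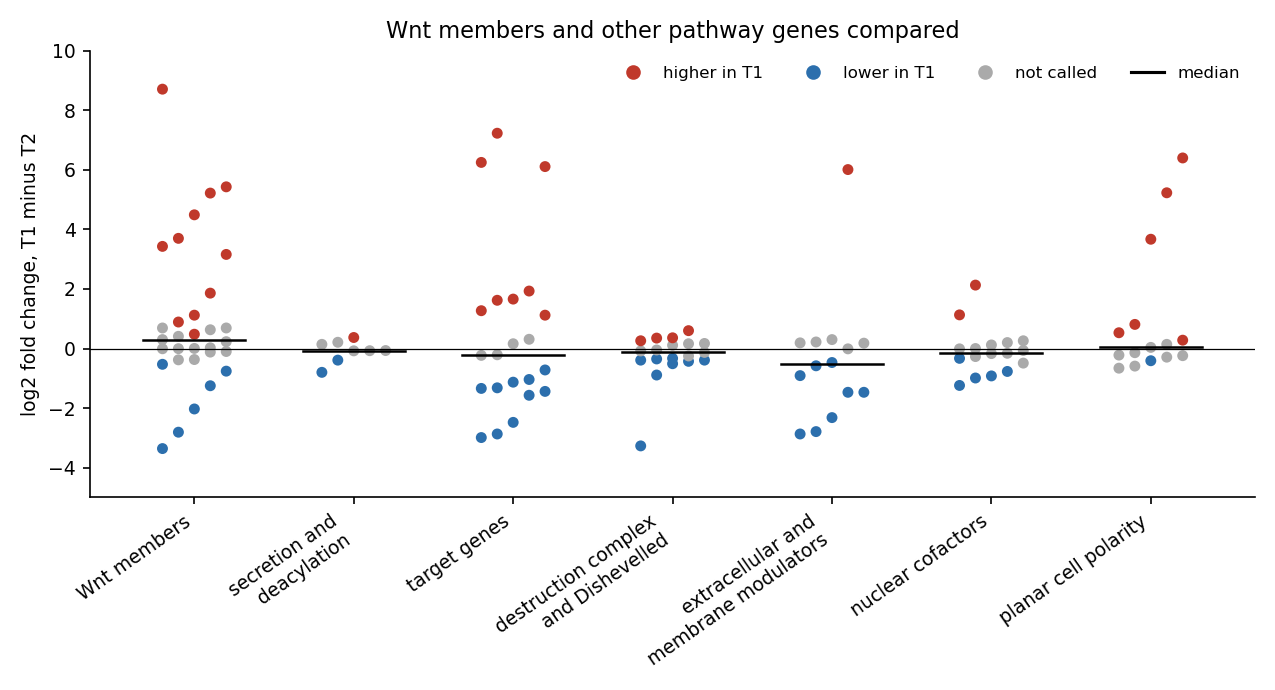
Log2 fold change (T1 minus T2, y axis) of each gene compared among the 31 Wnt members and 6 further pathway lists (x axis); red points were higher and blue points lower in T1 cells (limma, adjusted p under 0.01), grey points were not called, and black bars are medians. The medians lie between -0.52 and 0.30, while single genes reach 8.71 among the members and 7.23 among the target genes.

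Exons of 6 of the 31 genes overlap those of an annotated gene on the other strand, by 3.16% (Fzd6) to 17.8% (Fzd5) of their length. The others were Lef1, Tcf7l1, Wnt11 and Wnt7b. The library kit does not mark strand and no strand setting was given, so reads of such partners cannot be told apart. With 3 libraries against 3, an exact permutation test of a single gene could not give a two-sided p-value under 0.1.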

How the data were processed

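Reads were made from poly(A) RNA with the Illumina TruSeq RNA V2 kit. Per the labels and the study's methods, the authors removed adapters with Trimmomatic, mapped to mm10 with TopHat2, counted per gene with HTSeq and normalized with DESeq2. Tool versions, annotation and strand setting are not given in the sources used here. The deposited signal is a read count divided by a size factor, and 100% of values were whole reads within 0.01 read after division by the smallest value above 0 of the library. No column was left unused (0). Spreadsheet dates stood in place of 27 gene names, none of them named here.

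The 11514 of 24129 entries whose normalized count averaged 10 or more were fitted with limma 3.58.1 (R 4.3.3, trended variance), taking log2 after a pseudocount of 1, with Benjamini-Hochberg adjustment over all genes tested. Alternatives were pseudocounts of 0.5 and 5, no filter or a mean of 50, quantile normalization, no variance trend, edgeR 4.0.16 and DESeq2 1.42.0 on the recovered reads, the replicate number as a block, and each library left out. On the recovered reads edgeR called 5716 genes, 974 of them past both filters, where limma called 5701 and 964. Levels per kb used the union of exons in GENCODE M21, which holds mm10 coordinates of all 62 genes. Intervals from limma are 95% intervals. Ratios against 3 reads set the T1 mean against that level averaged over the T2 libraries. They allow for counting error in T2 libraries only and leave out the spread of T1 libraries. Replicates differed by more than sampling noise (chi-square per degree of freedom 8.26 to 26.1).

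The members and gene lists were chosen with earlier results of these data known. Every gene compared is named, with values in every library where called and by means otherwise, except that Wnt7b, Wnt10b, Fzd5 and Znrf3, which were not called, are also given in every library. Of the lists, genes past both filters and Ctnnb1, Gsk3b, Wls, Myc, Ccnd1 and Wisp1 are named. Protein sequences were not used here.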

Additional observations from a re-analysis of the deposited data

How the results depend on the processing

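For the 31 genes compared, 444 of 462 values under the alternatives kept their direction and their side of the threshold. The counts of members higher (10 to 12) and lower (5 to 7) in T1 cells, and past both filters (6 to 7 and 2 to 4), stayed within 1.5 times the reported ones. The log2 fold change of Lrp6 lost its call without the variance trend (-0.53, adjusted p = 0.0101, limma). The log2 fold change of Fzd5 was called with DESeq2 (0.65), without T2 replicate 2 (0.95) and with the replicate block (0.69). The sign turned, all near 0 and none called, for the log2 fold change of Znrf3 with quantile normalization (-0.0098), edgeR (-0.0042), DESeq2 (-0.0016) and with a library left out (-0.10 to 0.12). With single libraries left out it also turned for the log2 fold change of Fzd2 (-0.11 to 0.11), Fzd6 (-0.053 to 0.034) and Ryk (-0.029 to 0.065). All 297 values of the 20 other named genes kept their call. A mean of at least 50 left no value for Lef1, Wnt5b, Sfrp1, Tnfrsf19, Gpc4 and Fjx1. Low genes moved most with the pseudocount or tool: Sfrp1 ran from 2.44 to 7.68.

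Counts of the lists moved more, and the cause was not tested. Secretion genes higher in T1 cells were 1, but 3 without a filter, 0 with quantile normalization and 0 without the variance trend, and those lower were 1 without the trend. Without the trend, destruction complex genes were 1 higher and 5 lower, and 3 polarity genes were higher. Quantile normalization gave 2 polarity genes lower, and a mean of 50 gave 0 modulators higher. With each library left out, secretion genes higher in T1 cells were 0 to 1 (0 without T1 replicate 2 or 3 or T2 replicate 1 or 2) and lower 1 to 2 (1 without T1 replicate 1 or T2 replicate 1 or 3). Destruction complex genes were 1 to 4 higher (1 without T1 replicate 2 or T2 replicate 1 or 3, and 2 without T1 replicate 1) and 5 to 7 lower (5 without T1 replicate 1 or 2 or T2 replicate 2 or 3). Nuclear cofactors lower were 3 to 5 (3 without T1 or T2 replicate 2), polarity genes higher 3 to 5 (3 without T2 replicate 3) and lower 0 to 3 (3 without T1 replicate 3 and 0 without T2 replicate 1).

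The numbers of T1 and T2 replicates are not stated to pair samples. Deviations of same-numbered libraries correlated at 0.0575, 0.1722 and 0.1040, and other pairs at -0.1524 to 0.0719. Each T1 library correlated best with its own number, but T2 replicate 1 did not. The block raised the calls over all genes from 5701 to 5780. With the replicate block 12 members were higher and 6 lower, and past both filters 7 and 3. A count of 0 allows up to 3 reads, or 2.78 to 3.17 normalized counts, and whether depth or the counting of reads set the 18 genes listed at 0 was not tested.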
